A study of Mus musculus with 6 samples.

Results

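The cytosolic ribosomal protein genes were followed across 6 cultures of C2C12 cells, an established line of mouse muscle precursors; with ample serum they multiply, and with little they fuse to form fibres. Members were the genes whose only annotated symbol had the form Rpl or Rps with a number, with or without a closing a, x, y or l, together with Rplp0, Rplp1, Rplp2 and Rpsa. Of 22180 genes with a single-symbol probe set on the Affymetrix array, 64 met this rule, 40 of the large and 24 of the small ribosomal subunit, through 104 probe sets. The rule used names and no measured value. Of 80 listed cytosolic ribosomal protein genes, 57 were among the 64, so the counts below do not cover the whole family.

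All 6 cultures carried the label of C2C12 myoblasts, and each was a single array. In growth medium (10% FBS, fetal bovine serum) the cells were untreated, or received 50 ng/ml TNF-α, an inflammatory cytokine, or 10 nM BTZ for 24 h. In 2% differentiation medium, to which cells first grown in 10% FBS were moved, they were untreated, or received 50 ng/ml TNF-α or 10 nM BTZ at day 4, and all 3 were harvested at day 5. The labels give no harvest day for growth medium, so comparisons of the media cannot tell medium from time in culture. BTZ is not spelled out in the labels; the abbreviation usually stands for bortezomib, a proteasome inhibitor. With 1 array in each group, a difference between 2 arrays has no replicate error and no p-value.

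Ribosomal proteins coat and fold the ribosomal RNA of the small subunit, which reads the messenger RNA, and of the large subunit, which joins the amino acids. They are made in near equal amounts, and their genes are known to be transcribed together and to be high in growing cells. Their messenger RNAs begin with a run of pyrimidines at the cap, through which the growth-sensing kinase mTOR controls their translation; an array measures only the RNA level and not that control. Muscle precursors leave the cell cycle before they fuse.

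The array medians lay between 5.01 and 5.11 on the log2 scale, and the median of all values, 5.06, served as a floor. A gene was kept where its highest array reached the floor, which 13652 genes did. The culture markers followed the media: all 8 for differentiated muscle (such as Myh3, Ttn and Mymk) were higher in untreated differentiation than growth medium, with a median log2 difference of 5.06, and all 7 markers of dividing cells that were measured were lower, with a median of -3.22. With BTZ the dividing markers were lower in both media (medians -2.69 and -1.63), and the muscle markers were lower by a median of -2.36 in differentiation medium. With TNF-α all 7 dividing markers were higher in both media (medians 0.31 in growth and 1.08 in differentiation medium), and all 8 muscle markers were lower in both (medians -0.50 and -0.25). Of markers of other cells, 2 of 8 for macrophages, 2 of 8 for endothelium and 4 of 7 for adipocytes reached the floor. Of these, Cd68, a lysosomal protein listed for macrophages, fell with differentiation medium by 1.18 (limma adjusted p = 0.0241, lower in 3 of 3 pairs) and rose with BTZ by 0.89 (limma adjusted p = 0.0411, higher in 2 of 2 media). In RNA from whole cultures, a change in the share of dividing or fused cells and a change in RNA per cell cannot be told apart.

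Of the 64 members, 60 reached the floor, 37 of the large and 23 of the small subunit. The 4 under it on every array were Rpl10l, Rpl32l, Rpl3l and Rps4l, named as paralogs or copies of other ribosomal protein genes. Just under the floor was Rpl3l, whose highest array read 4.78, followed by Rps4l at 3.69 and Rpl10l at 3.43. Just above were Rps15 at 5.14, Rps20 at 5.38 and Rpl39l at 5.50 on their highest arrays. Rps15 and Rplp2 passed through the BTZ array in differentiation medium alone, and Rps20 through the TNF-α array in growth medium alone, so their height there was part of what kept them, and medians over all 64 are given as well. Mean log2 signals of the 60 ran from 4.48 for Rps15 to 12.70 for Rps6, the phosphorylated protein of the small subunit that is used as a readout of mTOR signalling; since probes differ in brightness, this order says nothing of which gene had more RNA.

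When each gene was set against its own mean over the 6 arrays, the members took a common course. The median deviation was 0.01 on the untreated growth medium array, 0.36 with TNF-α and 0.24 with BTZ. It was -0.40 on the untreated differentiation medium array, -0.17 with TNF-α and -0.04 with BTZ. Untreated differentiation medium held the lowest value of 45 of the 60 members, and TNF-α in growth medium held the highest value of 33. Neither the counts nor the deviations were taken over all genes, so no background stands beside them here. Large and small subunit genes followed the same course, with medians of -0.40 and -0.41 on the untreated differentiation medium array and of 0.35 and 0.37 with TNF-α in growth medium.

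**Figure D1:**
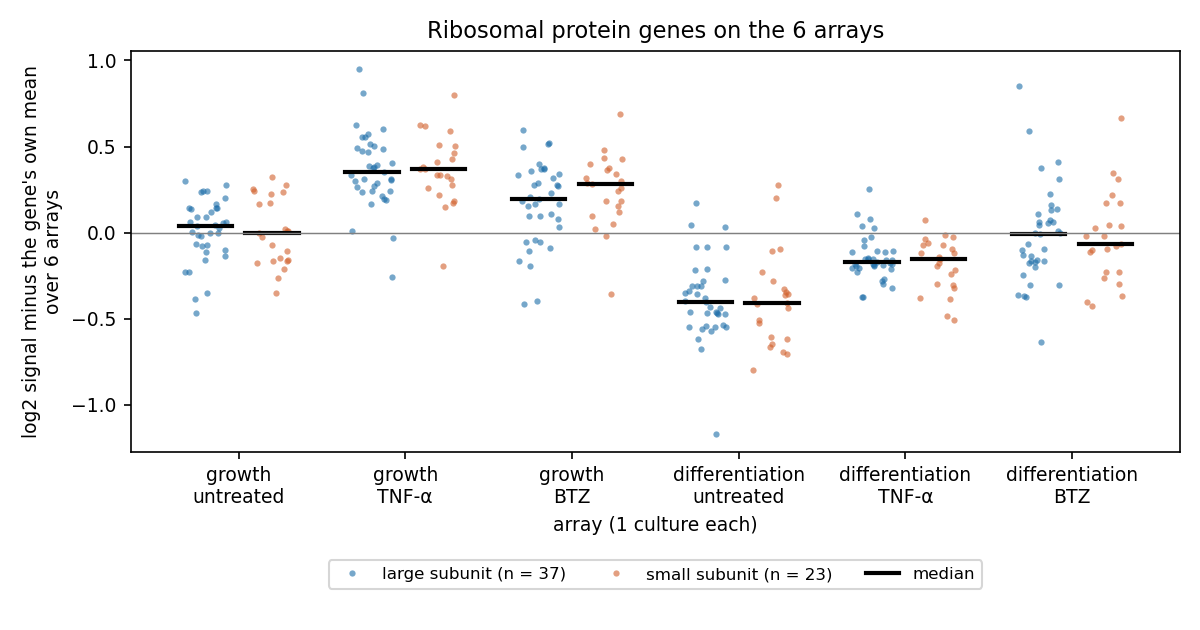
Log2 signal of each of the 60 ribosomal protein genes above the floor minus that gene's mean over the 6 arrays (vertical axis), by array (horizontal axis, 1 culture each); blue points are 37 large subunit genes, orange points 23 small subunit genes, and black bars their medians. The points are lowest on the untreated differentiation medium array (medians -0.40 and -0.41) and highest with TNF-α in growth medium (0.35 and 0.37).

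The first comparison asked how the members stood in differentiation medium against growth medium without treatment. Most were lower: the median log2 difference over the 60 was -0.44, against 0.01 over all genes above the floor, and over all 64 members it was -0.42. Lower values were read for 54 members, when 48.7% of all genes were lower. Of these, 25 members were lower by at least 0.5, a size that 12.5% of all genes reached, and 2 were higher by as much, where 14.1% of all genes were. By at least 1 log2 unit, 2 members were lower, 3.33% against 3.92% of all genes, so the shift was broad and of moderate size and did not hold more large differences than the other genes.

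Rpl37, a small zinc-binding protein of the large subunit, was the lowest. It read 6.95 untreated, 7.38 with TNF-α and 7.30 with BTZ in growth medium, and 5.62, 6.60 and 6.86 in differentiation medium. The untreated differentiation medium array stood apart below the other 5, so its difference of -1.33 shares that low array with both treatment comparisons in that medium. Rps13, a small subunit protein, read 8.69, 9.06 and 8.76 in growth medium and 7.64, 8.06 and 8.42 in differentiation medium, a difference of -1.06 between the untreated arrays, and the values of the media did not overlap. Rps24 and Rps12 followed, at -0.93 and -0.84. Members that were higher numbered 6 (51.3% of all genes), with Rps16 at 0.55 (5.46 to 6.02) and Rps14 at 0.54 (5.99 to 6.54) ahead of Rpl5 at 0.38 and Rpl37a at 0.24. For Rps16 and Rps14 both untreated values lay within 1.5 log2 units of the floor.

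The same comparison could be made in the TNF-α and in the BTZ cultures, which share no array with each other or with the untreated pair. Between the TNF-α arrays the member median was -0.49, and 59 of 60 were lower in differentiation medium (49.2% of all genes), 29 of them by at least 0.5 (15.3% of all genes). Between the BTZ arrays it was -0.27, and 46 were lower (50.4% of all genes), 13 of them by at least 0.5 (9.82% of all genes). Across the 3 pairs, 43 members were lower each time, which 22.2% of all genes were, and none was higher each time, which 22.9% of all genes were. Rplp2 went furthest the other way, higher by 1.02 in differentiation medium between the BTZ arrays.

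**Figure D2:**
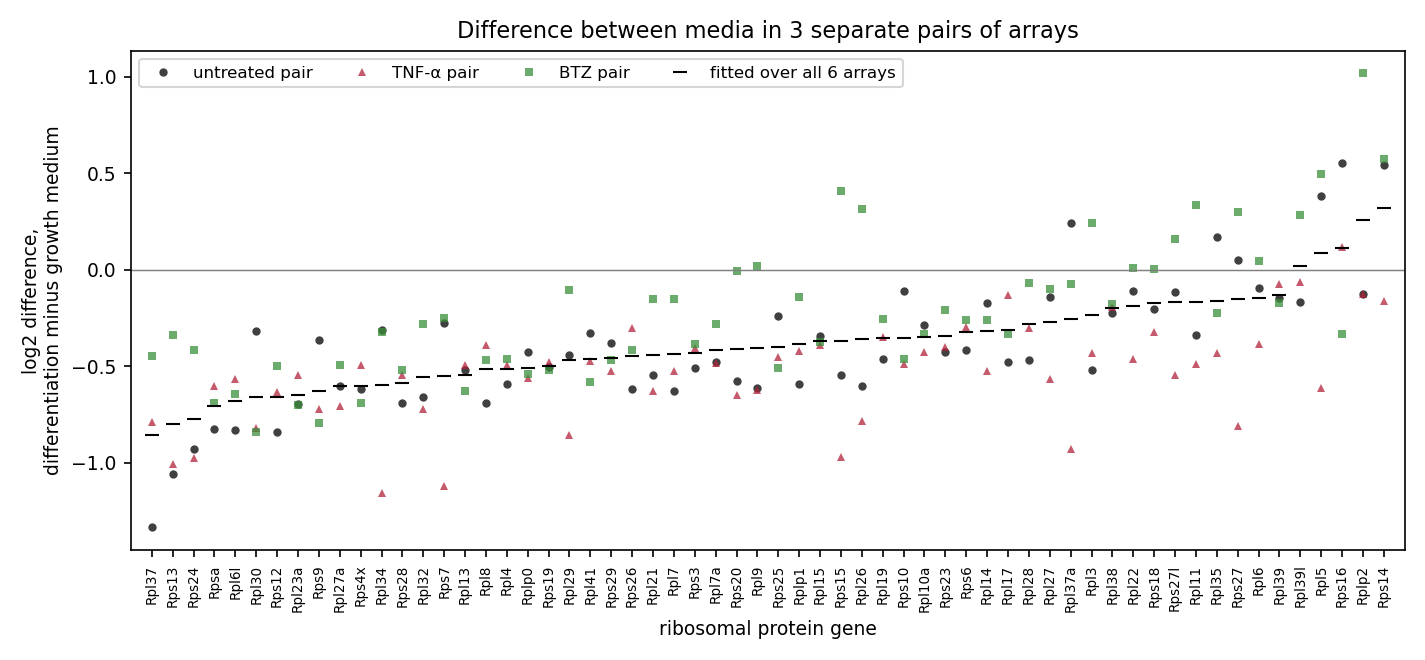
Log2 difference of differentiation minus growth medium (vertical axis) for each of 60 ribosomal protein genes (horizontal axis, ordered by the difference fitted over all 6 arrays, dashes), in the untreated pair (black circles), the TNF-α pair (red triangles) and the BTZ pair (green squares) of arrays. Most points lie under 0, from Rpl37 at -1.33 in the untreated pair; Rplp2 in the BTZ pair lies highest at 1.02.

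A test over all arrays used limma with additive terms for medium and treatment, 2 residual degrees of freedom, and Benjamini-Hochberg adjustment over all 13652 genes at 0.05. The residual of this fit also holds any difference in a treatment's effect between media. For medium, 5 of the 60 members fell, 8.33%, where 2.47% of all genes were called lower, and no member was called higher (1.56% of all genes). Before adjustment, 37 members had a lower value at p under 0.05, against 11.2% of all genes, and 0 had a higher one (11.4% of all genes).

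The 5 members that fell in differentiation medium were Rps12, Rpl23a, Rpl6l, Rpsa and Rps4x. Rps12, a protein of the small subunit head, read 12.01, 12.17 and 12.32 in growth medium and 11.17, 11.54 and 11.82 in differentiation medium, with no overlap. Its fitted log2 difference was -0.66 (SE 0.107, limma adjusted p = 0.0357), lower in 3 of 3 pairs. Rpl23a, which stands at the mouth of the exit tunnel and binds the signal recognition particle, read 11.35, 11.39 and 11.39 against 10.66, 10.84 and 10.69, and fell by 0.65 (SE 0.106, limma adjusted p = 0.0359), lower in 3 of 3 pairs.

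Rpsa, the small subunit protein also known as the laminin receptor, read 9.82, 10.00 and 10.03 in growth medium and 8.99, 9.40 and 9.33 in differentiation medium. It fell by 0.71 (SE 0.127, limma adjusted p = 0.0453), and again no value of one medium reached those of the other. Rps4x, the X-linked member, fell by 0.60 (SE 0.110, limma adjusted p = 0.0467), lower in 3 of 3 pairs. Rpl6l, annotated as a pseudogene, fell by 0.68 (SE 0.115, limma adjusted p = 0.0387); whether its probe set also reads a near-identical gene was not tested, and Rpl6 itself read lower by 0.10 between the untreated arrays.

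These 5 calls depended on the arrays, the variance model, the scaling and the floor. Over 10 other settings, Rps12 and Rpl6l were called in 8, Rpl23a in 7, and Rpsa and Rps4x in 5 each; with arrays centred on bright genes Rps12 and Rpl6l were called and the other 3 were not. Without the BTZ arrays 31 members were called lower for medium (23.5% of all genes were then called in either direction), without the TNF-α arrays 0 were, and with a variance prior that ignored signal strength 0 were. In simulated data of this design, 0 of 50 genes changed by 0.5 and 15 of 50 changed by 1 log2 unit were called for medium. Few genes were changed there, so its adjusted cut-off differed from that of the real data. In the real data, members with fitted differences of -0.60 to -0.71 were called, so the simulation sets no detection limit for the members.

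Members with a stronger signal agreed more closely with each other. Among the 16 with a mean of 10 or more, all were lower in differentiation medium in each of the 3 pairs, and all were higher with TNF-α in both media. Their SD over genes in the untreated comparison of media was 0.21, against 0.42 among the 20 with a mean under 7. For BTZ in differentiation medium these SDs were 0.32 and 0.52. In that comparison the weak band holds Rps15 at 1.37 and Rplp2 at 1.20. Both reached the floor on that BTZ array alone, so their height there was part of what kept them in the SD of 0.52. The SDs were not taken over all genes of the same signal, so the narrowing is not shown to be particular to the members. The medians for the untreated media were -0.51 in the strong and -0.30 in the weak band, and 24 members between them had -0.49.

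**Figure D3:**
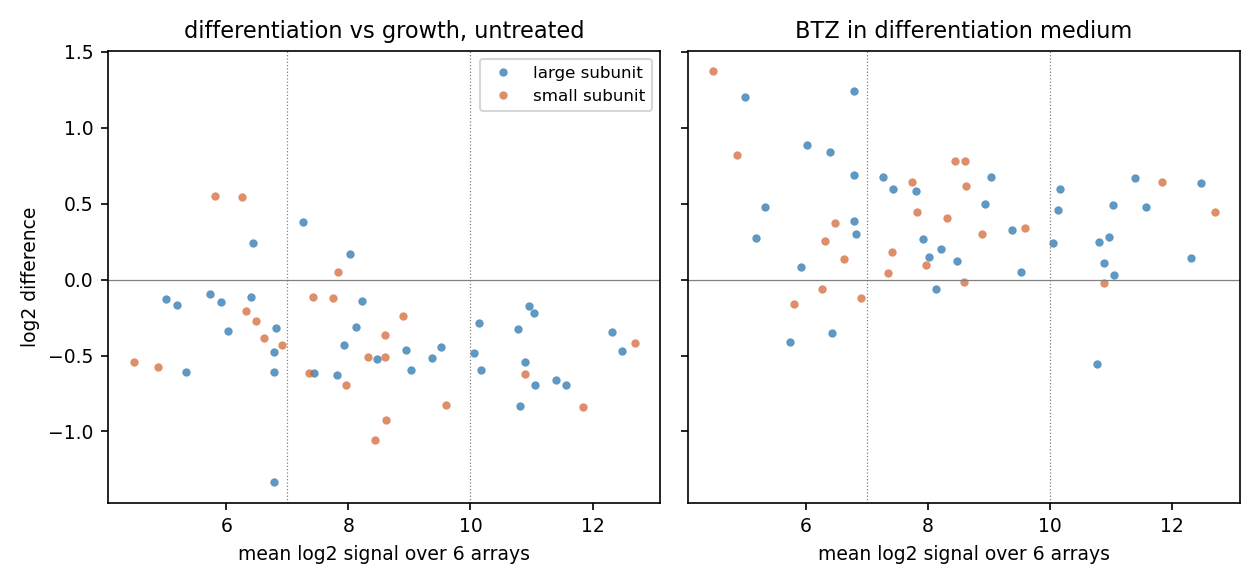
Log2 difference (vertical axis) against mean log2 signal over 6 arrays (horizontal axis) for 60 ribosomal protein genes, blue for large and orange for small subunit, in the untreated comparison of media (left) and for BTZ in differentiation medium (right); dotted lines mark means of 7 and 10. Points spread less to the right of 10 (SD over 16 genes 0.21 and 0.32) than to the left of 7 (SD over 20 genes 0.42 and 0.52). Of the genes to the left of 7, Rps15 and Rplp2 reached the floor on the BTZ array in differentiation medium alone.

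The sequences around the start sites are shown because a pyrimidine run at the start is the sequence feature for which the family is known. RefSeq promoters (GRCm38.p6) were matched for 49 of the 64 members, 46 of them above the floor. Each line gives 15 bases before to 15 bases after an annotated start, 5′ to 3′ on the gene's strand, with the longest run of C and T in capitals. Where a gene had several starts, as Rps19 had 3, the start with the longest run is shown. The first 4 are members with the strongest mean signal, and the last 4 those with the largest fitted effect. Rps15 ranked there by its fitted BTZ difference of 0.90, which limma did not call. It reached the floor on the BTZ array in differentiation medium alone, so its height there was part of what kept it.
Rps6, chr4:86857353-86857382, minus strand: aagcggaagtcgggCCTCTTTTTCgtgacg
Rpl28, chr7:4792950-4792979, plus strand: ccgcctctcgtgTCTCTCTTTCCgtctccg
Rpl15, chr14:18270972-18271001, minus strand: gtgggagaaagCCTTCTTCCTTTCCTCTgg
Rps12, chr10:23787195-23787224, minus strand: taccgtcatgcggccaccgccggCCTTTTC
Rps15, chr10:80292416-80292445, plus strand: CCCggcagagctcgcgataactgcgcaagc
Rpl37, chr15:5116598-5116627, plus strand: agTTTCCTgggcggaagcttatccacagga
Rps13, chr7:116334176-116334205, minus strand: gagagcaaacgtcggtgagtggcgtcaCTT
Rps19, chr7:24884898-24884927, plus strand: gagggagcggggtgtggagggCTCTCCCac

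Within the window the run was 10 bases in Rps6, 11 in Rpl28 and 17 in Rpl15, and 3 in Rps15 and Rps13. The runs of Rps12, Rps15 and Rps13 reach the edge of the window, so they may be longer than shown. A run of 8 or more pyrimidines lay inside this window, at any annotated start of the gene, in 22 of 49 members (44.9%), against 13.9% of 27025 genes. It was present in 50% of the 26 large and 40% of the 20 small subunit members above the floor. The fitted difference for medium had a median of -0.35 over the 21 members above the floor with such a run and -0.40 over the 25 without; for BTZ the medians were 0.36 and 0.32. The motif CTCTTTC, searched on the gene's strand over 300 bases and able to overlap the run, was found in 18.4% of members and 4.6% of all genes.

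The core motif of the ETS family of transcription factors, CCGGAAG, searched on both strands over 250 bases before to 50 after the start, was found in 22 of 49 members (44.9%) and in 9.93% of all genes. The 4 members with it and the largest fitted effects follow, with the motif, or its reverse complement, in capitals. Rplp2 ranked by its fitted BTZ difference of 0.63, which limma did not call, and it reached the floor on the BTZ array in differentiation medium alone.
Rpl37, chr15:5116578-5116607, plus strand: caccaagacccgCCGGAAGtagtttcctgg
Rpsa, chr9:120127566-120127595, plus strand: tcgccccagctaCTTCCGGcctggggtctg
Rplp2, chr7:141447531-141447560, plus strand: ggaaatgtcttcCTTCCGGtgcaccctttt
Rpl27a, chr7:109519014-109519043, plus strand: gagctaccggggCTTCCGGgggcgggcgcc
Members above the floor with the motif had a median fitted difference for medium of -0.36 and those without it -0.41. The motif AAGATGGC, bound by YY1, was found on either strand in 2 of 49 members (4.08%) and 3.19% of all genes. A match is only a stretch of letters in the promoter.

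TNF-α in growth medium was the second comparison. The median difference over the 60 members was 0.35, against 0.03 over all genes, and 0.33 over all 64. Higher values were read for 56 members (53.8% of all genes), and 14 were higher by at least 0.5 (7.77% of all genes), while no member was lower by that much (6.57% of all genes). One of the 14 was Rps20 at 0.58, which reached the floor on that array alone. Rps7, a small subunit protein that binds MDM2, read 6.32 untreated and 7.28 with TNF-α, a difference of 0.96. Rpl34 at 0.95, Rpl35 at 0.86 and Rpl30 at 0.85 followed. The value for Rpl35 was a mean of 3 probe sets that ranged from 0.27 to 1.57, and its brightest probe set gave 0.27. At the other end, Rpl39l was at -0.46 and Rps23 and Rpl39 were each at -0.10.

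In differentiation medium the TNF-α difference had a median of 0.26 (0.01 over all genes, and 0.25 over all 64 members). Higher values were read for 52 members (51.0% of all genes), of which 5 were higher by at least 0.5 (7.13% of all genes), a share of 8.33% that was near the background. Rpl37 was highest at 0.98 (5.62 to 6.60), followed by Rpl17, a protein of the exit tunnel, at 0.81 (6.23 to 7.04), Rps28 at 0.60 and Rpl32 at 0.53. The lowest was Rpl37a at -0.55 (6.61 to 6.06), with Rps27 at -0.39, Rpl39l at -0.36 and Rps14 at -0.29.

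The TNF-α comparisons in the 2 media share no array. Of the 60 members, 51 were higher with TNF-α in both (33.6% of all genes) and 3 were lower in both (28.7% of all genes). No member was called for TNF-α by limma, where 0.0952% of all genes were. Before adjustment, 10 were higher at p under 0.05 (3.73% of all genes) and 0 were lower (2.83% of all genes). The closest was Rpl32, at 11.38 and 10.72 untreated and 11.97 and 11.25 with TNF-α in growth and differentiation medium; its fitted difference was 0.56 (SE 0.154, limma adjusted p = 0.543), higher in 2 of 2 media. In the simulated data, 4 of 50 genes changed by 1 log2 unit were called for TNF-α, which sets no detection limit for the members either.

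**Figure D4:**
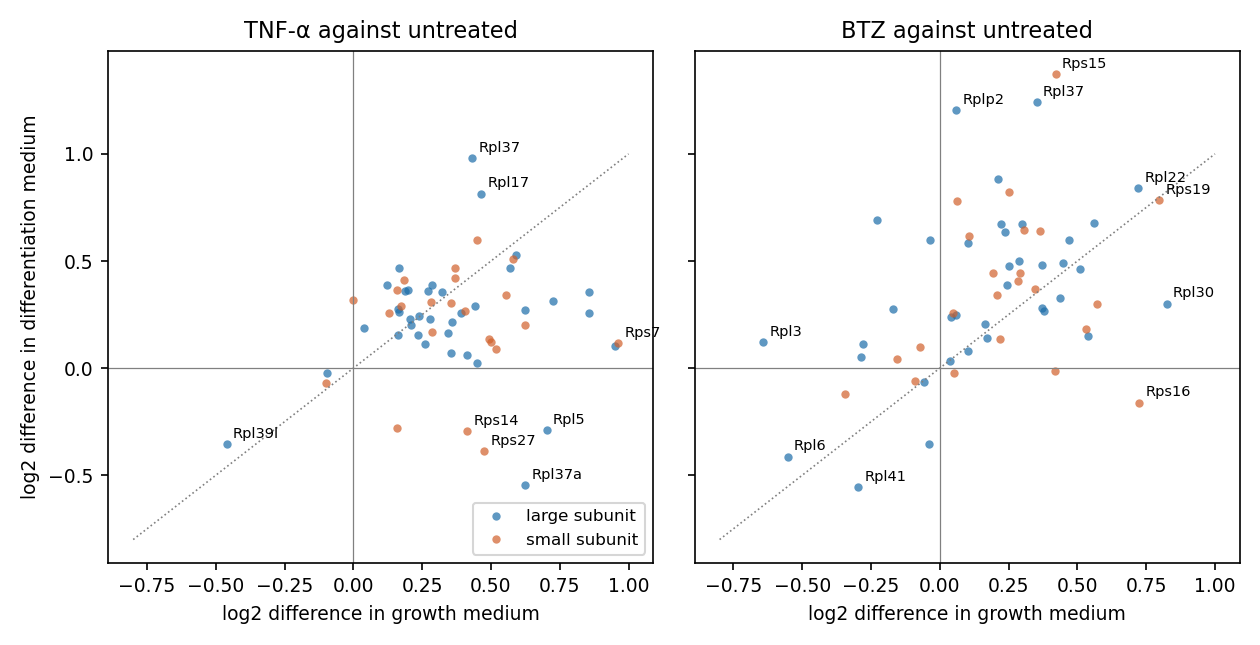
Log2 difference from untreated in differentiation medium (vertical axis) against that in growth medium (horizontal axis) for TNF-α (left) and BTZ (right); each point is 1 of 60 ribosomal protein genes, blue for large and orange for small subunit, and the dotted line marks equal differences. Most points lie above 0 on both axes (51 genes for TNF-α and 43 for BTZ), with Rpl37a and Rpl5 opposed for TNF-α and Rps15, Rpl37 and Rplp2 highest for BTZ in differentiation medium. Rps15 and Rplp2 reached the floor on the BTZ array in differentiation medium alone.

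BTZ in growth medium gave a member median of 0.22, against 0.02 over all genes, and 46 members were higher (51.6% of all genes). At a size of 0.5 or more, 9 of the 60 were higher where 18.0% of all genes were, and 2 were lower where 16.4% of all genes were. The share of members higher by that much, 15.0%, was thus near that of all genes, and the share lower by that much, 3.33%, was smaller. Rpl30, a large subunit protein, was highest at 0.82 (6.59 to 7.42), and its difference with TNF-α, which shares the untreated array, was 0.85. Rps19 at 0.80, Rps16 at 0.72 and Rpl22 at 0.72 followed. The lowest were Rpl3 at -0.64, Rpl6 at -0.55, Rps23 at -0.34 and Rpl41 at -0.30. The 3 probe sets of Rpl3, a protein near the catalytic centre, ranged from -1.32 to 0.32, and its brightest gave 0.32, so its direction depended on the probe set.

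In differentiation medium the BTZ difference had a median of 0.33 (0.00 over all genes, and 0.30 over all 64 members), and 51 members were higher (50.3% of all genes). At least 0.5 higher were 19 (19.2% of all genes) and at least 0.5 lower was 1 (20.5% of all genes). By at least 1 log2 unit, 3 were higher, 5.0% of the members and 6.05% of all genes. These were Rps15 at 1.37, Rpl37 at 1.24 and Rplp2 at 1.20, and Rpl11 at 0.88 was next. Rps15 and Rplp2 reached the floor on this BTZ array alone, so their height there was part of what kept them in both counts. The untreated array of Rpl37 in this medium, at 5.62, was its lowest. Rps15 read 4.31, 4.94 and 4.74 in growth medium and 3.77, 3.97 and 5.14 in differentiation medium, so 5 of its 6 values were under the floor. Rpl41, the shortest of the ribosomal proteins, was lowest at -0.55 (10.69 to 10.14), and all of its 5 probe sets were lower. Rpl6 at -0.41, Rpl37a at -0.35 and Rps16 at -0.16 followed.

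Both media together, which share no array for BTZ, had 43 members higher in each (36.2% of all genes) and 6 lower in each (34.3% of all genes). Agreement between the media was thus about as frequent for lower values among all genes as for higher ones, but not among the members. For each member, the BTZ difference in differentiation medium minus that in growth medium had a median of 0.14, positive in 41 of 60, against -0.02 over all genes; for TNF-α it was -0.06, positive in 26, against -0.03. These differences between media were not tested. The muscle and cell cycle markers and Cd68 differed between media and treatments as given above, and their part in the members' values was not tested.

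By limma, 2 members rose with BTZ, 3.33% where 7.31% of all genes were called higher, and 0 fell (6.85% of all genes). Before adjustment, 15 were higher at p under 0.05 (16.8% of all genes) and 2 were lower (15.0% of all genes). Rps19, the gene most often mutated in Diamond-Blackfan anaemia, read 8.50 untreated, 8.78 with TNF-α and 9.30 with BTZ in growth medium, and 7.99, 8.30 and 8.78 in differentiation medium. Its fitted log2 difference was 0.79 (SE 0.160, limma adjusted p = 0.0314), with 0.80 and 0.78 in the media. These are means of 3 probe sets, of which 2 hold distinct values. Single probe sets ranged from 0.59 to 0.90 in growth and from 0.15 to 1.10 in differentiation medium, so the close match of the media rests on the averaging. Rpl22, which also binds RNA outside the ribosome, read 6.04, 6.67 and 6.77 and then 5.93, 6.20 and 6.77. It rose by 0.78 (SE 0.190, limma adjusted p = 0.0493), in both media. Without the TNF-α arrays neither was called, and the call of Rpl22 was kept in 2 of 9 other settings and that of Rps19 in 8 of 9.

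**Figure D5:**
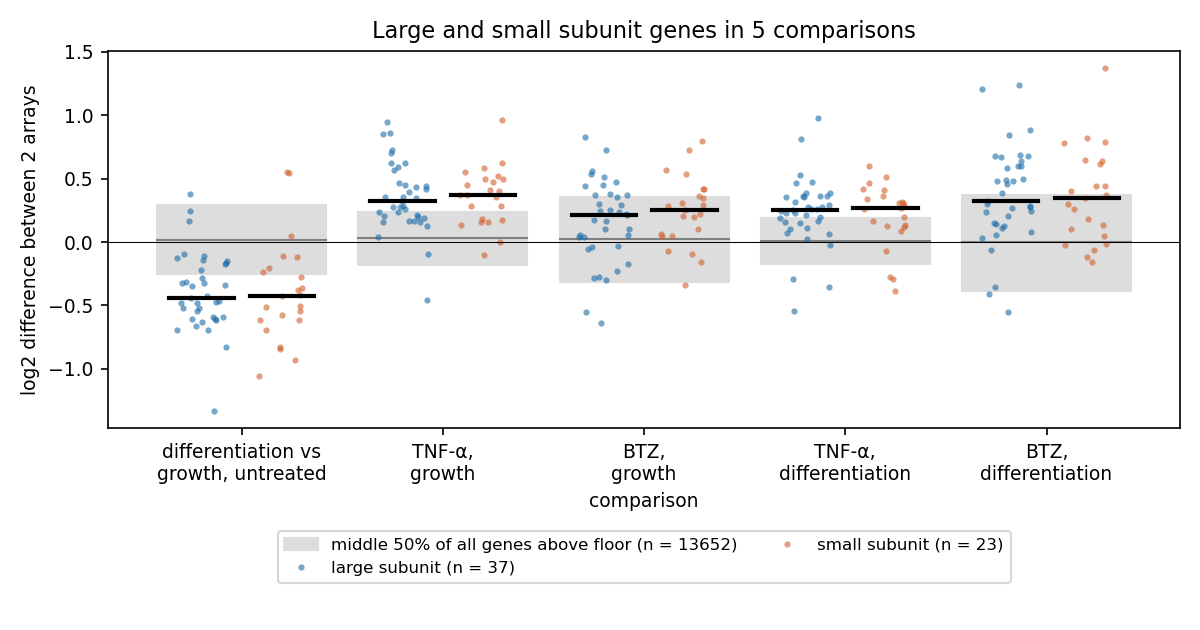
Log2 difference between 2 arrays (vertical axis) in the 5 comparisons (horizontal axis) for 37 large (blue) and 23 small (orange) subunit genes, with black bars at their medians; grey boxes hold the middle part, from the lower to the upper quartile, of all genes above the floor, and the grey line its median. Member medians lie under the grey line for the media (-0.44 and -0.43) and above it for each treatment (0.21 to 0.37), and BTZ spread the other genes more widely than TNF-α.

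The large and the small subunit genes had similar medians in the 5 comparisons; with 1 array in each group the gap between them was not tested. The medians of the large and small subunit genes were -0.44 and -0.43 for the untreated media, 0.32 and 0.37 for TNF-α and 0.21 and 0.25 for BTZ in growth medium. In differentiation medium they were 0.26 and 0.26 for TNF-α and 0.33 and 0.34 for BTZ. The order of the subunits turned with the processing in 4 of these 5 comparisons (large minus small from -0.04 to 0.08 for the untreated media, for example). Between the BTZ arrays of the media the medians were -0.22 and -0.39. By limma, 2 of 37 large and 3 of 23 small subunit genes fell with medium (2.47% of all genes), and 1 of each rose with BTZ, a share under the 7.31% of all genes.

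The P-stalk recruits the elongation factors to the ribosome, and Rplp0, Rplp1 and Rplp2 of its 4 listed genes were measured. Rplp0, its base, read 7.92, 8.32 and 8.30 in growth medium and 7.50, 7.75 and 7.76 in differentiation medium. Rplp1 read 9.09, 9.28 and 9.31, and then 8.49, 8.85 and 9.17. Both were lower in untreated differentiation medium, by -0.43 and -0.59. Rplp2 read 4.78, 5.02 and 4.84, and then 4.66, 4.90 and 5.86, so that its BTZ array in differentiation medium stood above the other 5, which were under the floor. None of the 3 was called by limma for any term.

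Rpl5 and Rpl11 join the 5S RNA in a particle that binds MDM2 when ribosome assembly fails, which spares p53. Rpl5 read 6.80, 7.50 and 7.36 in growth medium and 7.18, 6.89 and 7.86 in differentiation medium. Rpl11 read 5.89, 6.33 and 6.10, and then 5.55, 5.84 and 6.44. Both were highest with BTZ in differentiation medium, at 0.68 and 0.88 over the untreated array there, and their fitted BTZ differences of 0.62 (SE 0.301, limma adjusted p = 0.224) and 0.55 (SE 0.244, limma adjusted p = 0.19) were not called, though higher in 2 of 2 media. Mdm2 itself, whose product marks p53 for degradation, rose with BTZ by 1.88 (limma adjusted p = 0.00929), from 8.76 to 10.63 in growth and from 9.22 to 11.12 in differentiation medium.

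By role, the members had much the same direction as the 60 together, of which 54 were lower in untreated differentiation medium (48.7% of all genes), 56 were higher with TNF-α in growth medium (53.8%) and 51 were higher with BTZ in differentiation medium (50.3%). Of genes along the exit tunnel 7 were measured; 6 were lower in untreated differentiation medium (median -0.48), and all 7 were higher with BTZ in that medium (median 0.39). Of 11 genes of the small subunit head, which include Rps12, Rps15 and Rps19, 10 were lower in untreated differentiation medium (median -0.51), and all 11 were higher with TNF-α in growth medium (median 0.41). Among 11 of the body and platform, such as Rpsa, Rps4x and Rps6, these numbers were 9 (median -0.43) and 9 (median 0.35). The 11 head genes include Rps20, which reached the floor on the TNF-α array in growth medium alone, so its height there was part of what kept it. Rps15 was under the floor on both arrays of that TNF-α comparison. Of 9 genes listed as mutated in Diamond-Blackfan anaemia, a failure of red cell production, 7 were measured. All 7 were higher with BTZ in differentiation medium (median 0.62), and only Rps19 among them was called by limma. That call was for BTZ, where 7.31% of all genes were called higher. The list was not complete, so these values hold for the 7 alone.

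The paralogs did not follow their parents in every case. Rpl3l, which takes the place of Rpl3 in mature muscle, read 4.32, 4.18 and 4.78 in growth medium and 4.45, 4.03 and 4.37 in differentiation medium, all under the floor, so no appearance of it at day 5 was detectable here. Rpl3 read 8.71, 8.99 and 8.07, and then 8.19, 8.55 and 8.31. Rps27l, known as a p53 target, read 7.54, 8.05 and 7.90 in growth medium and 7.42, 7.51 and 8.06 in differentiation medium, where BTZ was higher by 0.64. Its parent Rps27 read 7.68, 8.16 and 7.88, and then 7.73, 7.35 and 8.18, with BTZ higher by 0.44.

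Rpl39l, described in the germ line, was lower with TNF-α in both media, at -0.46 and -0.36, while Rpl39 was at -0.10 and -0.02. Rpl22l1, which the rule did not take in, differed by no more than 0.14 in size in any of the 5 comparisons, from 6.27 untreated in growth medium, while its parent Rpl22 rose with BTZ. Rpl7l1, also outside the rule, was higher by 0.37 with TNF-α in growth medium and by 0.44 with BTZ in differentiation medium, beside 0.29 and 0.58 for Rpl7. Rps4l and Rpl10l were under the floor throughout. Of further ribosomal protein genes outside the rule, Fau, which encodes the small subunit's ubiquitin-like fusion protein, read 9.18 on both untreated arrays and was higher by 0.69 with BTZ in growth medium, and Rps3a1 was lower by 0.27 between the untreated media.

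The genes that build and serve ribosomes were read beside the members. Of 78 ribosome assembly factors, 65 were lower in untreated differentiation medium (median -0.25; 48.7% of all genes were lower), led by Lyar at -1.28, Dkc1 at -1.20 and the nucleolar chaperone Npm1 at -1.14. With TNF-α in growth medium 77 were higher (median 0.58; 53.8% of all genes were higher), among them Rcl1 at 1.10 and Dkc1 at 1.08. With BTZ their medians were 0.43 in growth and 0.65 in differentiation medium, where Pwp2 at 1.77 and Utp20 at 1.69 led, and limma called 14 of 78 higher and 0 lower for BTZ (7.31% and 6.85% of all genes). None was called for medium (2.47% of all genes lower and 1.56% higher) or TNF-α (0.0952% of all genes).

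Of 33 translation factors, 31 were lower in untreated differentiation medium (median -0.29; 48.7% of all genes) and 32 were higher with TNF-α in growth medium (median 0.31; 53.8% of all genes). By limma, 3 of 33 rose with BTZ, a share near the 7.31% of all genes: Eef1b2 by 0.64 (adjusted p = 0.0282), Eif3h by 0.73 (adjusted p = 0.0281) and Eif6, which keeps free large subunits from joining small ones, by 0.80 (adjusted p = 0.0455), each in 2 of 2 media. Of 15 genes of RNA polymerase I, which transcribes the large ribosomal RNAs, 2 rose and 1 fell (7.31% and 6.85% of all genes). Taf1a rose with BTZ by 2.44 (limma adjusted p = 0.0139) and Ttf1 by 1.03 (limma adjusted p = 0.0264), and Ubtf fell by 1.28 (limma adjusted p = 0.0358), each the same way in 2 of 2 media.

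Mitochondrial ribosomal protein genes, whose products form a separate ribosome, gave medians over 70 genes of -0.16 for the untreated media, 0.31 and 0.03 for TNF-α and 0.21 and 0.47 for BTZ in growth and differentiation medium. The cytosolic values beside these were -0.44, 0.35, 0.26, 0.22 and 0.33, and the difference between the groups was not tested. By limma, 10 of 70 mitochondrial members rose and 2 fell with BTZ (7.31% and 6.85% of all genes). For medium none was called (2.47% of all genes lower and 1.56% higher), and for TNF-α none was (0.0952% of all genes).

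Of 17 regulators of ribosomal protein genes and of translation, 5 rose with BTZ by limma and 0 fell (7.31% and 6.85% of all genes). Sesn2, which restrains mTOR under stress, rose by 2.41 (adjusted p = 0.00929), and Rptor, the mTOR partner, by 0.99 (adjusted p = 0.0253). Larp4, Eif4ebp1 and Mdm2 were the others. Myc, which drives ribosome production, was not called for any term in the limma fit. It read 9.26, 10.08 and 8.81 in growth medium and 8.41, 9.45 and 8.91 in differentiation medium, so it was lower by 0.84 in untreated differentiation medium and higher with TNF-α in both media, by 0.82 and 1.04.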

How the data were processed

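The log2 values were deposited by the authors as a table of 41345 probe sets by 6 arrays; for the log base, background correction and summarization, nothing is given in the sources used here; the log2 scale is inferred from a range of 1.66 to 14.06. Per the labels' protocols, RNA was extracted with TRIzol, cleaned and hybridized to an Affymetrix whole-transcript array. Of the probe sets, 23521 carried 1 symbol, 1814 several and 16010 none; only the first were used, averaged per gene (22180 genes). Near-identical ribosomal pseudogenes can share probe signal.

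Differences are between log2 values. A gene's highest array had to reach a floor of 5.06, the median over all probe sets and arrays. The additive fit (medium and treatment) used limma 3.58.1 in R 4.3.3, with eBayes and a trend, and Benjamini-Hochberg adjustment; it was tested on simulated data. Members and lists were chosen with earlier results of these data known. Named were the 4 highest and 4 lowest members in each comparison, members past 1 log2 unit or called, paralogs with parents, P-stalk and 5S particle genes, those beside the floor, and the top genes of other lists. The windows holding the ETS motif, the role groups' examples and the related-gene examples beyond this rule were chosen after values were seen. Scaling, probe set choice, floor, fit and arrays were varied. With 6 arrays and 1 for each group, their number limits the precision.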

Additional observations from a re-analysis of the deposited data

Results flagged for a closer look

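For 4 members TNF-α had opposite directions in the 2 media, each by at least 0.25 log2 units; with 1 array in each group the difference was not tested. Rpl37a was higher by 0.62 in growth medium and at -0.55 in differentiation medium, a difference of -1.17. Rpl5 was at 0.70 and -0.29, a difference of -0.99. Rps27 was at 0.48 and -0.39, a difference of -0.86, and Rps14 was at 0.41 and -0.29, a difference of -0.71. Each of the 4 has 1 single-symbol probe set, and in each the untreated differentiation medium value was higher than the untreated growth medium value (for Rps27 7.73 against 7.68).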

How the results depend on the processing

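No paired analysis was possible because each group holds 1 array, so replicate numbers pair no samples; treatment is already a term of the additive fit. The medians over members kept their direction in all 5 comparisons under each setting tried: -0.44 to -0.32 for the untreated media (-0.32 with members of 1 probe set only), 0.29 to 0.41 and 0.21 to 0.31 for TNF-α in growth and differentiation medium, 0.17 to 0.25 and 0.21 to 0.42 for BTZ. Centring arrays on bright genes moved the all-gene median by -0.13 for BTZ in differentiation medium, where the member median was then 0.21. The large minus small subunit median changed sign between settings in 4 of 5 comparisons: it ranged from -0.04 to 0.08 for the untreated media (0.0845 with the brightest probe set), from -0.09 to 0.02 for TNF-α in growth medium (0.0237 after quantile normalization), and from -0.06 to 0.10 for TNF-α and -0.03 to 0.13 for BTZ in differentiation medium (0.10 and 0.13 with members of 1 probe set only). For BTZ in growth medium it stayed under 0. Members called lower for medium, 5 in the report, numbered 7 with the brightest probe set and 31 without the BTZ arrays. They numbered 3 after quantile normalization, 2 with arrays centred on bright genes, 2 with members of 1 probe set and 3 without a floor. Without a trend 0 were called, and without the TNF-α arrays 0 were. Members called higher for BTZ, 2 in the report, numbered 4 with the brightest probe set, 0 without the TNF-α arrays, and 1 each with arrays shifted to the same median, centred on bright genes, members of 1 probe set, no floor, a raised floor and no trend; counting identical probe sets once, chosen after seeing the data, gave 3. Fewer arrays or genes entered some of these; otherwise the cause was not tested. Of single members named, Rpl3 with BTZ in growth medium was at 0.32 in its brightest probe set, and Rps26 with TNF-α in growth medium changed sign under 3 settings (up to 0.10). Signal near the floor limits Rps15, Rplp2, Rps20 and Rpl39l.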

Other observations

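Probe sets with several symbols, which the gene values leave out, hold 12 further ribosomal protein symbols, such as Rpl10, Rpl12 and Rps2. Of 57 that list a member's or such a symbol, 56 reached the floor. In untreated differentiation medium 48 were lower (median -0.46), where 48.7% of all single-symbol genes above the floor were. With TNF-α 49 were higher in each medium (medians 0.28 and 0.19), where 53.8% and 51.0% of those genes were. With BTZ 42 and 46 were higher (medians 0.21 and 0.21), where 51.6% and 50.3% of those genes were. The shares over all probe sets with several symbols were not counted.

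Among the 24 members with several single-symbol probe sets, 20 had probe sets more than 3 log2 units apart in mean signal. Probe sets of one gene differed in direction in 3 members for the untreated media, in 4 and 3 for TNF-α and in 10 and 5 for BTZ, in growth and differentiation medium. Rps12 has 8 probe sets, of which 3 hold distinct values. The 64 members lie on 19 chromosomes, with at most 8 on one.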
